A study of Mus musculus with 16 samples.

Results

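The Cyp2c family was followed through 16 liver RNA-seq libraries as 10 genes, Cyp2c29, Cyp2c37, Cyp2c38, Cyp2c39, Cyp2c40, Cyp2c44, Cyp2c50, Cyp2c54, Cyp2c69 and Cyp2c70, chosen by gene symbol with earlier results of these data known. All 10 were among the 23420 genes of the count table, which held 5 further Cyp2c genes outside this choice. The mice were male wild-type C57BL/6J, and all of them ate a 45% high-fat diet (HFD), so that no liver came from chow feeding. FEN-HFD mice had 0.04% fenretinide, a synthetic retinoid, mixed into the diet, and HFD mice had none. Diet lasted 20 weeks or 7 days, which gave 20-week FEN-HFD, 20-week HFD, 7-day FEN-HFD and 7-day HFD groups of 4 mice each. Each library was the liver of 1 mouse, and each duration had its own mice, whose ages were not given in the sources used here. Because the genes were chosen with their pattern in view, their levels and fold changes are given as a description.

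Cytochrome P450 enzymes of the Cyp2c subfamily are membrane haemoproteins of the hepatocyte endoplasmic reticulum that oxidise drugs, steroids, retinoids and polyunsaturated fatty acids with electrons from cytochrome P450 oxidoreductase. Several mouse members act as epoxygenases, which turn arachidonic acid into epoxyeicosatrienoic acids, and Cyp2c70 acts on bile acids, where it makes the muricholic acids that set mouse bile apart from human bile. The genes are known to respond to the nuclear receptors CAR and PXR, to HNF4A and to the sex-specific rhythm of growth hormone.

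The 10 genes lie on mouse chromosome 19 (mm10), 9 of them in 1 cluster between Cyp2c29 at 39287044 and Cyp2c70 at 40187286, and Cyp2c44, listed by RefSeq as Cyp2c23, apart from it at 44005022 to 44029256. Tandem copies of this kind can share reads. Among all 75-base stretches of each transcript, 57.1% of those of Cyp2c40 and 43.2% of those of Cyp2c69 also occurred in another Cyp2c gene, against 17.8% for Cyp2c50, 14.1% for Cyp2c54, 13.8% for Cyp2c37, 2.98% for Cyp2c39, 1.86% for Cyp2c38 and 0.527% for Cyp2c29, and none for Cyp2c44 and Cyp2c70. The closest coding sequence was 96.1% identical for Cyp2c37 and Cyp2c50, 94.2% for Cyp2c38 and Cyp2c39, 97.7% for Cyp2c69 (with Cyp2c67), 92.6% for Cyp2c40 (with Cyp2c68), 69.04% for Cyp2c70 and 66.1% for Cyp2c44. How reads that matched several genes were counted is not given in the sources used here, so the values of Cyp2c40 and Cyp2c69, and to a smaller extent those of Cyp2c37, Cyp2c50 and Cyp2c54, are uncertain. Cyp2c38 lies inside the span of Cyp2c39 on the opposite strand, and the strand setting of the counting is also not given, so that reads of those 2 genes may be mixed where they overlap. Coding stretches of 1 read length are shown for the sets of near copies, 5′ to 3′, with capitals for the bases that differ from the first gene of the set. In the first set the stretch of Cyp2c69 had 0 differences from that of Cyp2c40, and those of Cyp2c67 and Cyp2c68 had 4 each.
Cyp2c40: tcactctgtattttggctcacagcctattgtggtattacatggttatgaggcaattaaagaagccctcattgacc
Cyp2c69: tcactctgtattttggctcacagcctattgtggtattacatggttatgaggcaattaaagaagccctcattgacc
Cyp2c67: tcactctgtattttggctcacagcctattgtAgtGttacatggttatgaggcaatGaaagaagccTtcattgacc
Cyp2c68: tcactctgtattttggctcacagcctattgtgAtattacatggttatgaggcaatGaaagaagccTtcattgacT
In the second set Cyp2c39 had 5 and Cyp2c29 had 7 differences from Cyp2c38.
Cyp2c38: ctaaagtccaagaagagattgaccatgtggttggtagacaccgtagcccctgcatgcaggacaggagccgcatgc
Cyp2c39: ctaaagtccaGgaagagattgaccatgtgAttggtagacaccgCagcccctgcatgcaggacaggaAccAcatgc
Cyp2c29: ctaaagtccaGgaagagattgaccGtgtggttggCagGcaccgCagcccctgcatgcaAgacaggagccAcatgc
In the third set Cyp2c54 had 2 and Cyp2c37 had 4 differences from Cyp2c50.
Cyp2c50: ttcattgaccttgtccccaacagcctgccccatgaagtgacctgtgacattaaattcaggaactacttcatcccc
Cyp2c54: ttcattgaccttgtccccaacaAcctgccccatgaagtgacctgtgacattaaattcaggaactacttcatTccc
Cyp2c37: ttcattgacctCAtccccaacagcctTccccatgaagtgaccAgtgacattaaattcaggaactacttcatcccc

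**Figure D1:**
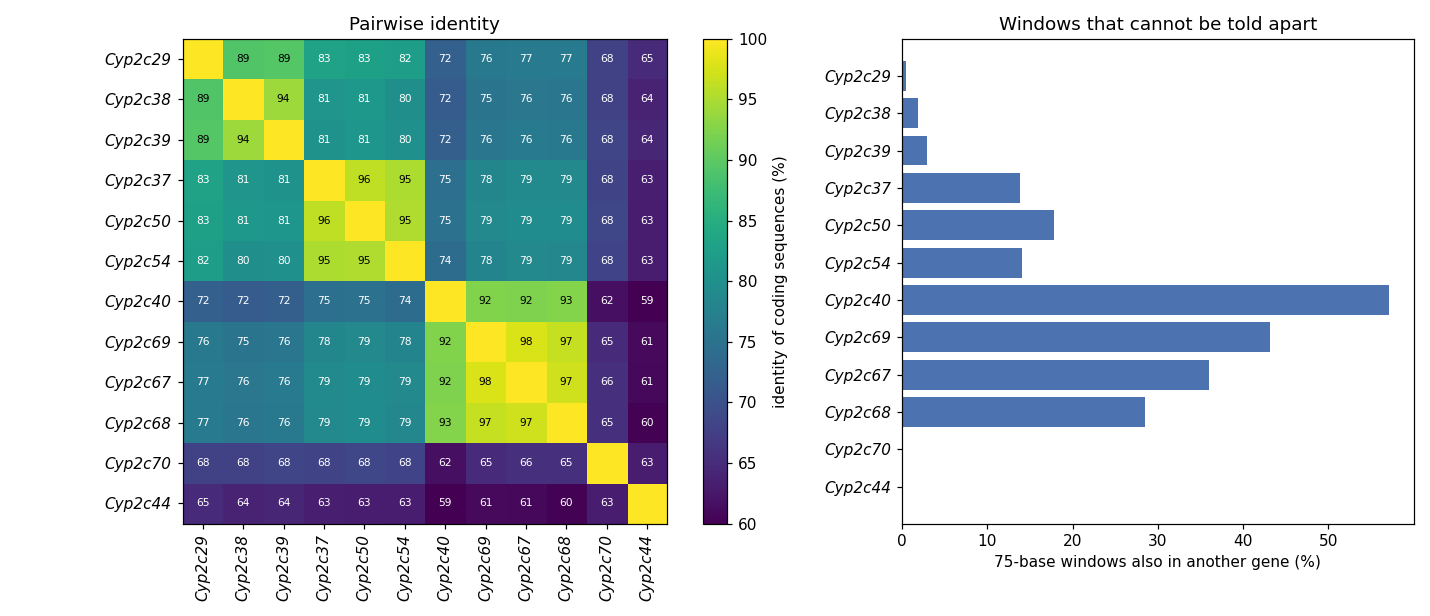
Left, identity of the coding sequences (%) of each pair among the 10 genes and their neighbours Cyp2c67 and Cyp2c68. Right, share (%) of the 75-base stretches of each transcript that also occur in another Cyp2c gene, which is 57.1% for Cyp2c40 and 0 for Cyp2c70 and Cyp2c44.

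RefSeq promoter sequences (GRCm38.p6) were found for 8 of the 10 genes, with 9 start sites. They are shown because near copies carried like sequences upstream of their starts. Each stretch is on the gene's own strand, and the capitals mark CAAAGTCCA or CAAAGTCTA. CAAAGTCCA is a word of the kind bound by HNF4A, a nuclear receptor that holds hepatocyte identity. CAAAGTCTA has T in place of its last C, and whether HNF4A binds that form was not tested. The words were picked after the sequences had been seen, and they were searched on both strands of the 250 bases before the start. CAAAGTCCA was present in 126 of 32851 promoters (0.384%) and in 3 of the 9 of these genes, those of Cyp2c40, Cyp2c69 and Cyp2c70.
Cyp2c40, chr19:39812831-39812879: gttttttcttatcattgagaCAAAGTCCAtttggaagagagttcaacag
Cyp2c69, chr19:39886816-39886864: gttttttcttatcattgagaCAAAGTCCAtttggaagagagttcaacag
Cyp2c70, chr19:40187322-40187370: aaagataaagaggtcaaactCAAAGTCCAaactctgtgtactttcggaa
CAAAGTCTA was present in 74 of 32851 promoters (0.225%) and in 4 of the 9, those of Cyp2c29, Cyp2c37 and both starts of Cyp2c39.
Cyp2c29, chr19:39286956-39287004: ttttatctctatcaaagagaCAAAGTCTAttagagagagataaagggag
Cyp2c37, chr19:39992288-39992336: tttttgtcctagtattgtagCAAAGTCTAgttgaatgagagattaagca
Cyp2c39, chr19:39347212-39347260: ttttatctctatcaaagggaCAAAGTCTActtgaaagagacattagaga
Cyp2c39, chr19:39510716-39510764: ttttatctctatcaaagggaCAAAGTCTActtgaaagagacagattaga
The stretches of Cyp2c40 and Cyp2c69 were identical, and that of Cyp2c70 differed from them around the word. A match is a description of these letters and does not show that a factor was bound.

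Library totals ran between 19218230 and 32546829 counts, and the 10 genes held 19668 to 125902 counts of a library. Levels are in CPM (read counts relative to library size), with TMM factors that correct for libraries in which a few genes take up many counts. All 16 livers carried hepatocyte transcripts, with Alb, the gene of serum albumin, at 28068.5 to 54812 CPM. The summed level of 7 hepatocyte markers, most of it Alb, was 62876 to 74953 CPM in 20-week FEN-HFD and 79386 to 93291 CPM in 20-week HFD livers, with no overlap, and 68593 to 78558 CPM in 7-day FEN-HFD and 75351 to 93243 CPM in 7-day HFD livers, where the groups overlapped. Mouse 29 of the 20-week FEN-HFD group stood apart in that Rn45s, the ribosomal RNA precursor, took 53.1% of its counts, against 0.466% to 1.46% in the other 15. This mouse also had the highest summed levels of 6 macrophage markers (779 CPM, against 351 to 384 CPM in its group) and 6 lymphocyte markers (88.5 CPM, against 26.1 to 35.8 CPM), and the lowest level of its group in 8 of the 10 Cyp2c genes. In the 20-week HFD group, mouse 28 was lowest in 8 of the 10 genes and had the highest sum of 5 cholangiocyte markers (157 CPM, against 47.9 to 70.4 CPM in its group). The part of these features in the Cyp2c levels was not tested. Values without mouse 29 or mouse 28 are given below for some of the genes, and ranges over left-out mice for others. In whole liver, fewer cells of a type and less RNA per cell cannot be told apart.

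Summed over the 10 genes, the Cyp2c level was 2876 ± 649.9 CPM in 20-week FEN-HFD and 2380.3 ± 1007 CPM in 20-week HFD livers, and 3394 ± 181 CPM in 7-day FEN-HFD and 2654 ± 429.8 CPM in 7-day HFD livers (SD, n = 4 each). The 20-week sums overlapped, with 2014 to 3567 CPM in FEN-HFD against 1054 to 3342 CPM in HFD livers. At 7 days they did not overlap, with 3219 to 3622 CPM in FEN-HFD against 2143 to 3035 CPM in HFD livers. Most of this 7-day difference was in Cyp2c70, with means of 1373 CPM in FEN-HFD and 735 CPM in HFD livers. Cyp2c29 (360 against 614 CPM) and Cyp2c44 (275 against 311 CPM) had lower means in 7-day FEN-HFD livers, and the remaining genes had higher ones. Genes were ranked on CPM per kilobase of transcript. Cyp2c70 ranked first in 20-week FEN-HFD (422 ± 76.7 CPM per kilobase), 7-day FEN-HFD (799.5 ± 44.8) and 7-day HFD livers (428 ± 65.0), and at place 4 in 20-week HFD livers (109 ± 34.3). Cyp2c29 ranked first in 20-week HFD livers (575 ± 260.0 CPM per kilobase), and Cyp2c50 was second there and in both FEN-HFD groups. Of the summed level per kilobase, Cyp2c70 made up 26.6 ± 1.42% in 20-week FEN-HFD and 8.89 ± 2.03% in 20-week HFD livers, and 42.0 ± 4.001% in 7-day FEN-HFD and 29.3 ± 5.11% in 7-day HFD livers. Cyp2c29 made up 21.2 ± 1.89% and 43.4 ± 2.29% in the 20-week FEN-HFD and HFD livers, and 10.5 ± 3.43% and 23.2 ± 2.80% in the 7-day FEN-HFD and HFD livers. Cyp2c50 held a like share in every group, between means of 22.0% and 24.8%. Cyp2c37, Cyp2c44 and Cyp2c54 had middle places, and Cyp2c38, Cyp2c39, Cyp2c40 and Cyp2c69 were at the bottom in all 4 groups. Neighbours in this order overlapped between mice in 6 of 9 pairs in 20-week FEN-HFD and 7 of 9 in 20-week HFD livers, and in 4 of 9 pairs in each of the 7-day groups. The pairs that did not overlap included the step down to Cyp2c50 below Cyp2c70 in 7-day FEN-HFD livers and the steps on either side of Cyp2c39 in 20-week HFD livers.

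**Figure D2:**
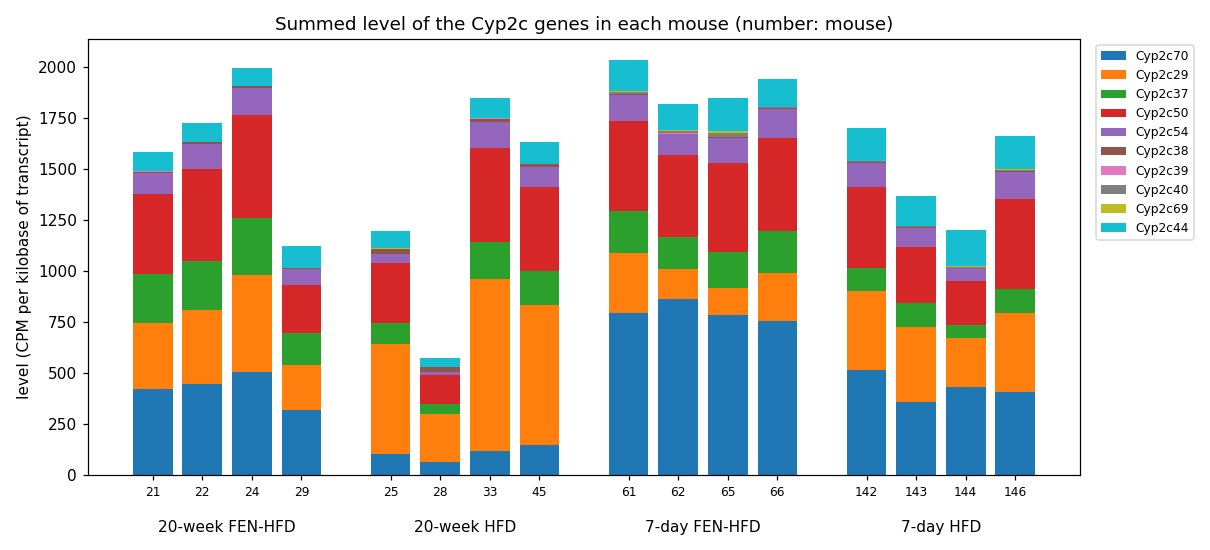
Bars show, for each of the 16 mice, the summed level of the 10 genes in CPM per kilobase of transcript, stacked by gene. Cyp2c29 (orange) is the widest band in all 4 mice of the 20-week HFD group, and Cyp2c70 (blue) in all 4 mice of the 7-day FEN-HFD group.

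**Figure D3:**
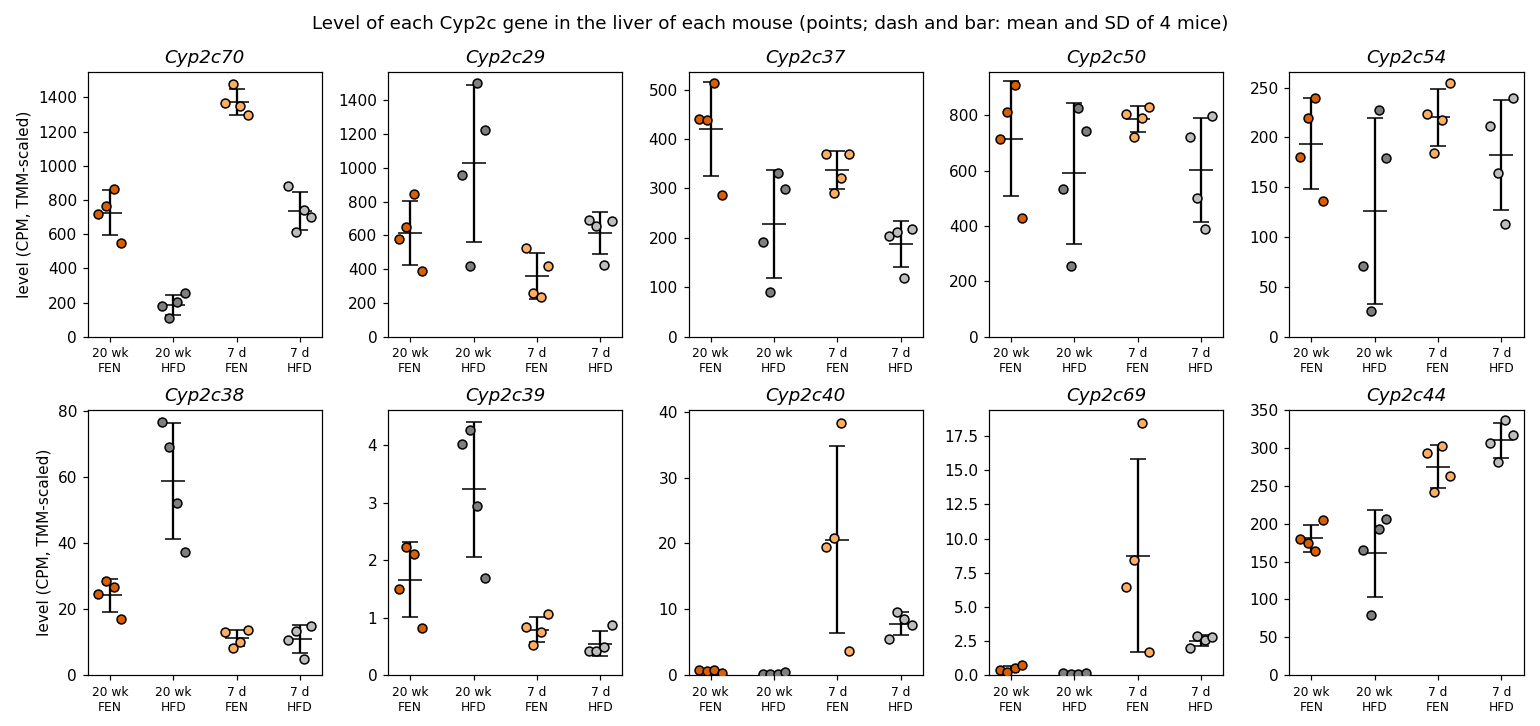
Points show the level of each gene in CPM in each mouse, with the mean (dash) and SD (bar) of 4 mice, on axes that start at 0 and differ between genes. For Cyp2c70, the 20-week HFD mice lie between 112 and 253 CPM, below every mouse of the other 3 groups.

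Values are given mouse by mouse, in the order 21, 22, 24 and 29 for 20-week FEN-HFD, 25, 28, 33 and 45 for 20-week HFD, 61, 62, 65 and 66 for 7-day FEN-HFD, and 142, 143, 144 and 146 for 7-day HFD. Log2 fold changes are edgeR estimates of FEN-HFD over HFD, or of 20-week HFD over 7-day HFD, and a change passed the threshold, or was called, where its adjusted p was under 0.05 over all genes tested. Cyp2c70, the muricholic acid-forming enzyme, had 721, 764, 866 and 550.3 CPM in 20-week FEN-HFD livers, against 178, 112, 204 and 253 CPM in 20-week HFD livers. The 7-day FEN-HFD livers had 1364, 1480.3, 1348 and 1299 CPM, against 883, 615, 741 and 701 CPM in 7-day HFD livers. All 4 FEN-HFD mice were above all 4 HFD mice at each duration, and the 20-week HFD mice were below all 4 of the 7-day HFD mice. The mean was 3.88 times the HFD mean at 20 weeks and 1.87 times at 7 days, with log2 fold changes of 1.95 (SE 0.23) and 0.90 (SE 0.12). Without the drug it fell to 187 ± 58.9 CPM at 20 weeks, against 735 ± 112 CPM at 7 days of HFD (log2 fold change -1.98, SE 0.22). The 20-week FEN-HFD mean of 725 ± 132 CPM stood beside the 7-day HFD mean of 735 ± 112 CPM. Without mouse 29 or mouse 28 the 20-week fenretinide log2 fold change was 2.07 and 1.77.

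Cyp2c40 and Cyp2c69, which share many stretches with each other or with Cyp2c67 and Cyp2c68, were low in these livers, and their level at 20 weeks was close to none. Cyp2c40, which in mice hydroxylates arachidonic acid, had 0.82, 0.55, 0.80 and 0.31 CPM in 20-week FEN-HFD livers, against 0.23, 0.15, 0.23 and 0.39 CPM in 20-week HFD livers. After 7 days it had 19.5, 20.8, 38.4 and 3.62 CPM in FEN-HFD livers, against 5.47, 9.59, 8.51 and 7.59 CPM in 7-day HFD livers. In 3 mice the 7-day FEN-HFD value was above all 7-day HFD values, and that of mouse 66 was below all of them. Cyp2c69 had 0.37, 0.20, 0.50 and 0.72 CPM in 20-week FEN-HFD livers, against 0.11, 0.06, 0.10 and 0.16 CPM in 20-week HFD livers. Its 7-day levels were 6.44, 8.41, 18.5 and 1.67 CPM in FEN-HFD livers, against 1.96, 2.83, 2.53 and 2.76 CPM in 7-day HFD livers. Mouse 66 was again lowest and mouse 65 highest of the 7-day FEN-HFD livers, as for Cyp2c40. Between the HFD groups both fell, Cyp2c40 with a log2 fold change of -4.96 (SE 0.31) and Cyp2c69 with -4.52 (SE 0.35). Summed counts at 20 weeks were 28 for Cyp2c40 and 12 for Cyp2c69 in HFD livers, against 927 and 298 in 7-day HFD livers, and the scaled 20-week level was 0.0314 (95% interval 0.0207 to 0.0456) and 0.0418 (0.0214 to 0.0741) of that at 7 days. These exact Poisson intervals cover counting error only. With fenretinide, the log2 fold change of Cyp2c40 was 1.36 (SE 0.42) at 20 weeks and 1.41 (SE 0.59) at 7 days, and that of Cyp2c69 at 7 days was 1.81 (SE 0.61), none of them past the threshold. Mice 65 and 66 moved these 7-day values in opposite directions, to 0.91 for Cyp2c40 and 1.13 for Cyp2c69 without mouse 65, and to 1.75 and 2.14 without mouse 66, again with no call. Cyp2c69 was under the count filter at 20 weeks, where summed counts of 32 in FEN-HFD and 12 in HFD livers gave a ratio of 3.72 (95% interval 1.87 to 7.93, counting error only). The ratio of Cyp2c40 to Cyp2c69 counts was between 2 and 3.39 in all mice but 2, mice 24 and 29 of the 20-week FEN-HFD group, at 1.6 and 0.429 where the genes had 16 and 10, and 3 and 7 counts.

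Cyp2c38 and Cyp2c39 form another close pair. Cyp2c38, an arachidonic acid epoxygenase, had 24.5, 28.4, 26.8 and 17.1 CPM in 20-week FEN-HFD livers, against 76.8, 69.1, 52.1 and 37.3 CPM in 20-week HFD livers. At 7 days the levels were 12.98, 8.14, 10.1 and 13.7 CPM in FEN-HFD livers, against 10.7, 13.4, 4.97 and 14.7 CPM in 7-day HFD livers. All FEN-HFD mice were below all HFD mice at 20 weeks, and the groups overlapped at 7 days. Cyp2c38 fell with fenretinide at 20 weeks to 24.2 ± 4.98 CPM, against 58.8 ± 17.6 CPM in HFD livers (log2 fold change -1.27, SE 0.23), and its 7-day log2 fold change was 0.04 (SE 0.31). The 20-week call was lost when any one of mice 21, 22, 24, 29, 25, 28 or 33 was left out, with log2 fold changes of -1.35 to -1.12. Cyp2c39, known to hydroxylate retinoic acid, had 1.49, 2.23, 2.10 and 0.82 CPM in 20-week FEN-HFD livers, against 4.02, 4.27, 2.95 and 1.69 CPM in 20-week HFD livers. Its 20-week groups overlapped through mouse 45 of the HFD group (log2 fold change -0.92, SE 0.35, not past the threshold). The 7-day FEN-HFD livers had 0.83, 0.53, 0.74 and 1.06 CPM, against 0.41, 0.41, 0.49 and 0.88 CPM in 7-day HFD livers. Both genes rose in 20-week HFD against 7-day HFD livers, with log2 fold changes of 2.43 (SE 0.34) for Cyp2c38 and 2.57 (SE 0.36) for Cyp2c39, and every 20-week HFD mouse was above every 7-day HFD mouse. Cyp2c39 had 8 to 139 counts in the 20-week livers and 13 to 29 in the 7-day livers.

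Cyp2c29, an epoxygenase that phenobarbital induces through CAR, had 576, 648, 847 and 389 CPM in 20-week FEN-HFD livers, against 958, 416, 1503 and 1226 CPM in 20-week HFD livers. After 7 days it had 525, 259.6, 237 and 419 CPM in FEN-HFD livers, against 693, 653, 425 and 685 CPM in 7-day HFD livers. The groups overlapped at both durations, at 20 weeks through mouse 28, whose 416 CPM was the lowest of the group by a factor of 3.61 against mouse 33, and at 7 days through mouse 61 of the FEN-HFD and mouse 144 of the HFD group. Its mean was 0.599 of the HFD mean at 20 weeks and 0.587 at 7 days, with log2 fold changes of -0.74 (SE 0.37) and -0.77 (SE 0.26), and neither passed the threshold. Between the HFD groups the log2 fold change was 0.73 (SE 0.34, not past the threshold), and without mouse 28 it was 0.99 and passed.

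Cyp2c37, Cyp2c50 and Cyp2c54 are the set of near copies with the higher levels, and all 3 have been described as arachidonic acid-metabolising enzymes in mice. Cyp2c37 had 439.7, 439, 513 and 287 CPM in 20-week FEN-HFD livers, against 192, 91.4, 332 and 299.6 CPM in 20-week HFD livers. Its 7-day levels were 370.3, 292, 321 and 369 CPM in FEN-HFD livers, against 203, 212, 119 and 217 CPM in 7-day HFD livers. At 7 days all FEN-HFD mice were above all HFD mice (log2 fold change 0.85, SE 0.18), and at 20 weeks mouse 29 of the FEN-HFD group lay among the HFD mice (0.88, SE 0.36). Neither value passed the threshold in edgeR, and DESeq2 called Cyp2c37 higher at 7 days. Without mouse 29 the 20-week value was 1.02, and without mouse 28 it was 0.61. Cyp2c50 had 712, 812, 908 and 427 CPM in 20-week FEN-HFD livers, against 534, 256, 826 and 743 CPM in 20-week HFD livers. At 7 days the levels were 806, 723, 788 and 828 CPM in FEN-HFD livers, against 719.7, 503, 390.2 and 797 CPM in 7-day HFD livers. All of these ranges overlapped, and its log2 fold changes were 0.28 (SE 0.35) at 20 weeks and 0.39 (SE 0.20) at 7 days. Cyp2c54 had 181, 219, 239 and 137 CPM in 20-week FEN-HFD livers, against 71.1, 25.9, 228 and 179 CPM in 20-week HFD livers. The 7-day FEN-HFD livers had 223, 185, 218 and 254 CPM, against 212, 164, 113 and 239 CPM in 7-day HFD livers. It was the most uneven of the 10 genes in the 20-week HFD group, where its highest mouse had 8.81 times the level of its lowest, and its log2 fold changes with fenretinide were 0.62 (SE 0.57) at 20 weeks and 0.28 (SE 0.20) at 7 days. In 20-week HFD against 7-day HFD livers the log2 fold changes of Cyp2c37, Cyp2c50 and Cyp2c54 were 0.28 (SE 0.38), -0.03 (SE 0.36) and -0.54 (SE 0.61), none past the threshold.

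Cyp2c44, an epoxygenase of mouse liver and kidney whose gene shares no 75-base stretch with the others, had its highest levels at 7 days. It had 180.4, 174, 164 and 205 CPM in 20-week FEN-HFD livers, against 165, 79.0, 193 and 206 CPM in 20-week HFD livers. After 7 days it had 294, 242, 303 and 264 CPM in FEN-HFD livers, against 306, 282, 337 and 317 CPM in 7-day HFD livers. FEN-HFD and HFD mice overlapped at both durations, with log2 fold changes of 0.17 (SE 0.26) at 20 weeks and -0.17 (SE 0.10) at 7 days. All 20-week HFD mice were below all 7-day HFD mice (log2 fold change -0.95, SE 0.25). That value did not pass the threshold in edgeR, and it passed in DESeq2, in limma-voom, in the fit of all 16 libraries and when mouse 28 or mouse 45 was left out (-0.73 and -1.10).

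**Figure D4:**
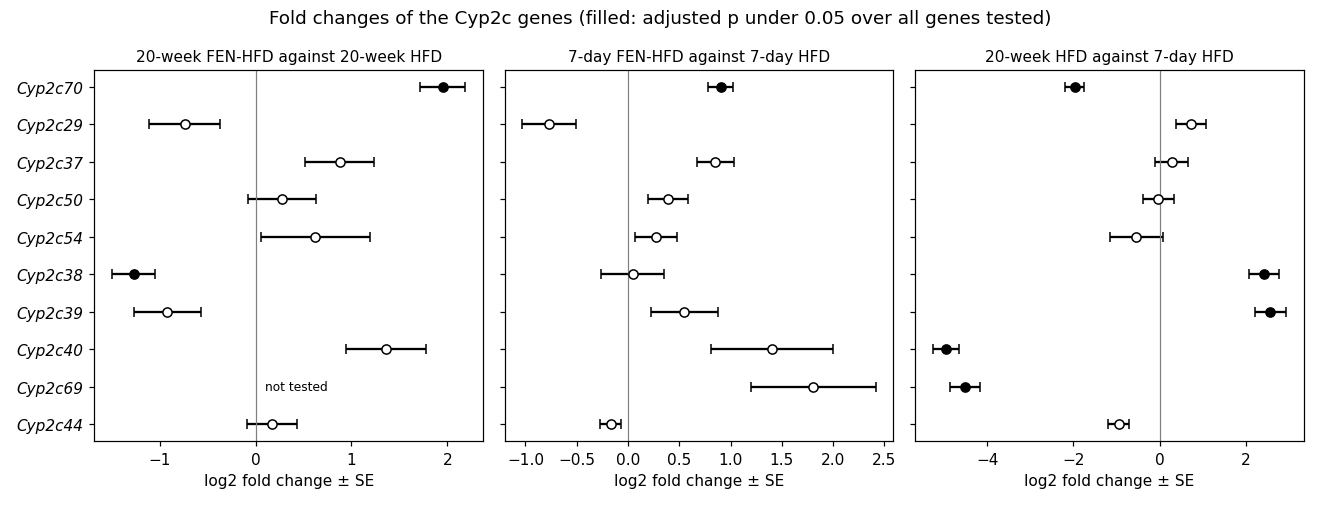
Points show the log2 fold change of each gene with its SE in 3 comparisons, on a separate axis each, and filled points passed an adjusted p of 0.05 over all genes tested. Only Cyp2c70 is filled in all 3 panels, at 1.95, 0.90 and -1.98; Cyp2c69 was not tested at 20 weeks.

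The calls behind these verbs came from edgeR's quasi-likelihood test over the whole table, with Benjamini-Hochberg adjustment over all genes tested. After 20 weeks of fenretinide, 9 of the 10 genes passed the count filter, 1 was called higher (Cyp2c70) and 1 lower (Cyp2c38). Over all 13010 genes tested, 0.769% were called higher and 1.09% lower. All FEN-HFD mice were above all HFD mice for Cyp2c70 and for the untested Cyp2c69, and below them for Cyp2c38, against 5.71% and 6.46% of all genes tested. After 7 days, all 10 genes were tested, and 1 was called higher (Cyp2c70) among 0.0988% of the 13157 genes tested. In the lower direction 0 of the 10 genes and 0% of all genes were called, with 1 of the 10 at an unadjusted p under 0.05 and 0 in DESeq2 and limma-voom. All FEN-HFD mice were above all HFD mice for Cyp2c37 and Cyp2c70, and below them for none of the 10, against 1.76% and 1.43% of all genes. The 7-day call of Cyp2c70 was lost when any one of mice 61, 62, 65, 66, 144 or 146 was left out (log2 fold changes of 0.86 to 0.93), and also in the fit of all 16 libraries. In 20-week HFD against 7-day HFD livers, 2 of 10 genes were called higher (Cyp2c38 and Cyp2c39) and 3 lower (Cyp2c40, Cyp2c69 and Cyp2c70), where 4.78% and 2.73% of 13255 genes were called. The groups were apart for Cyp2c38 and Cyp2c39 upwards and for these 3 and Cyp2c44 downwards, against 8.68% and 7.82% of all genes. Duration, age and cohort cannot be told apart in this comparison. Since the genes were chosen with these contrasts known, nothing is read from the counts against the background. The comparisons also share mice, the 20-week HFD group serving the first and the last, and the 7-day HFD group the second and the last.

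The fenretinide effect at 20 weeks minus that at 7 days was positive for Cyp2c70 (1.05 on the log2 scale, SE 0.28) and negative for Cyp2c38 (-1.31, SE 0.42) and Cyp2c39 (-1.46, SE 0.50). In edgeR 0 of the 10 differences passed, where 0.0299% of 13387 genes did, and 3 had an unadjusted p under 0.05, those of the 3 genes just named. DESeq2 and limma-voom each called 1, that of Cyp2c70. For the other 7 genes the difference lay between -0.11 and 0.35.

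Of the 5 Cyp2c genes outside the 10, Cyp2c66 had 0 counts in all 16 libraries and Cyp2c65 at most 19. Cyp2c55, an epoxygenase known mainly from the intestine, averaged 1.11 ± 0.26 CPM in 20-week FEN-HFD and 3.51 ± 0.50 CPM in 20-week HFD livers (SD, n = 4 each). It fell with fenretinide at 20 weeks, with all FEN-HFD mice below all HFD mice (log2 fold change -1.63, SE 0.22, adjusted p = 0.00914 in edgeR). Without mouse 21 its adjusted p in edgeR was 0.0529. It was higher in 20-week HFD than in 7-day HFD livers (1.08, SE 0.20, adjusted p = 0.0138 in edgeR), again with no overlap. Cyp2c67 and Cyp2c68, the near copies of Cyp2c40 and Cyp2c69, were far more abundant than these, at 128 ± 14.6 and 95.6 ± 12.7 CPM in 20-week HFD livers and 219 ± 13.8 and 148 ± 11.6 CPM in 7-day HFD livers. Both were lower in 20-week HFD livers in all 4 mice, with log2 fold changes of -0.78 (SE 0.10) and -0.63 (SE 0.11), a smaller step than the -4.96 and -4.52 of Cyp2c40 and Cyp2c69, and both calls held when any 1 mouse was left out. Of the summed counts of the 4 genes, Cyp2c40 and Cyp2c69 together made up 0.108% to 0.251% in 20-week HFD livers and 2.01% to 3.06% in 7-day HFD livers. With fenretinide neither Cyp2c67 nor Cyp2c68 passed the threshold at 20 weeks (0.02, SE 0.11, and -0.28, SE 0.12) or at 7 days (0.11, SE 0.13, and 0.15, SE 0.11).

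Genes around the family were taken in 16 lists, which were also drawn up with earlier results known. Of all genes tested, edgeR called 0.769% higher and 1.09% lower with fenretinide at 20 weeks. With fenretinide at 7 days it called 0.0988% higher and 0% lower. In 20-week HFD against 7-day HFD livers it called 4.78% higher and 2.73% lower. Because of how the lists were chosen, nothing is read from their counts against these shares. Of 18 transcription factors of Cyp2c genes, edgeR called 0 with fenretinide at 20 weeks, with 3 higher and 2 lower at an unadjusted p under 0.05, where DESeq2 called 3 and limma-voom 2. At 7 days all 3 tools called 0, with 0 higher and 1 lower at an unadjusted p under 0.05. Between the HFD groups 1 of the 18 was called, Nr0b2, the small heterodimer partner that represses bile acid synthesis, which fell (log2 fold change -1.28, SE 0.15). Of 7 electron donors and epoxide hydrolases, 2 fell with fenretinide at 20 weeks, Cyb5b (-0.78, SE 0.16) and Cyb5r3 (-0.60, SE 0.12), which serve the cytochrome b5 system. In 20-week HFD against 7-day HFD livers 2 of them rose, Cyb5b (0.82, SE 0.13) and Ephx1 (1.14, SE 0.18), the microsomal epoxide hydrolase. Of 14 tested CAR and PXR targets outside Cyp2c, 7 were higher and 0 lower in 20-week HFD than in 7-day HFD livers, with a median log2 fold change of 0.66 beside -0.01 for all genes, and 1 of the 14 was lower at an unadjusted p under 0.05. They included Cyp2b9 (6.59, SE 0.72), Cyp2b13 (5.97, SE 1.17, on 399 summed counts in 20-week HFD and 6 in 7-day HFD livers), Aldh1a7 (1.30, SE 0.17) and Aldh1a1 (1.47, SE 0.27), the last known as a retinal dehydrogenase. With fenretinide at 20 weeks 1 of the 14 fell, Cyp2b10 (-3.65, SE 0.72), the classic CAR target, with 0.17 ± 0.16 CPM in FEN-HFD and 2.49 ± 1.35 CPM in HFD livers (16 and 280 summed counts). The list went both ways, with 4 of the 14 higher and 4 lower at an unadjusted p under 0.05 and a median log2 fold change of -0.19. Cyp2b13 was among the higher ones (1.49, SE 0.60, not called). DESeq2 called 4 of these genes and limma-voom 3. Among 24 tested Cyp2 genes of other subfamilies Cyp2b10 was also the 1 gene called at 20 weeks, and between the HFD groups 4 of 25 were higher (Cyp2b9, Cyp2b10, Cyp2b13 and Cyp2a22) and 2 lower (Cyp2f2 and Cyp2u1). Of 11 genes of bile acid synthesis and conjugation, the field of Cyp2c70, 1 fell at 20 weeks with fenretinide, Cyp39a1 (-2.27, SE 0.25), an oxysterol hydroxylase, and 1 between the HFD groups, Amacr (-0.55, SE 0.13), a racemase of bile acid side-chain synthesis. With fenretinide at 20 weeks 3 of the 11 were higher and 2 lower at an unadjusted p under 0.05, with a list median of -0.02.

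Genes known for higher expression in male or in female liver were also listed, since several Cyp2c genes are sex-biased in mice. Of 13 male-biased genes, 1 rose with fenretinide at 20 weeks, Selenbp2 (log2 fold change 4.39, SE 0.43), with a list median of 0.78 beside 0.01 for all genes. The 13 genes summed to 4088 to 17158 CPM in 20-week FEN-HFD and 6352 to 11214 CPM in 20-week HFD livers, which overlapped. Mouse 29, at 4088 CPM, was below all 4 HFD mice, and the other 3 FEN-HFD mice, at 12619 CPM or more, were above them. Mup20 was most of the sum in 20-week HFD livers, with means of 5582 CPM there and 4071 CPM in FEN-HFD livers. The 20-week fenretinide log2 fold changes of Mup20 (-0.46, SE 0.46), Mup21 (-0.96, SE 0.51), Elovl3 (-0.37, SE 0.39) and Serpina12 (-0.08, SE 0.36) were negative and not called. Of the 13 genes 2 fell in 20-week HFD against 7-day HFD livers, Selenbp2 (-5.01, SE 0.49) and Ugt2b38 (-3.51, SE 0.78), with a list median of -1.37. Of the female-biased genes, 1 of 9 fell with fenretinide at 20 weeks, with a list median of -1.34. It was Hao2 (-4.02, SE 0.66, on 21 summed counts in FEN-HFD and 485 in HFD livers). Between the HFD groups 6 of 10 were higher, with a median of 2.39. They included Acot3 (4.86, SE 0.39), Hao2 (5.33, SE 0.74, on 485 and 12 summed counts), Cyp2b9 and Cyp2b13. The last 2 were also counted above among the CAR and PXR targets and the other Cyp2 genes, so these list counts are not separate. The 15 female-biased genes summed to 97.3 to 141 CPM in 20-week FEN-HFD livers, 165 to 336 CPM in 20-week HFD livers, 22.3 to 34.4 CPM in 7-day FEN-HFD livers and 19.5 to 36.0 CPM in 7-day HFD livers, so that the 20-week groups were apart and the 7-day groups overlapped. All mice were male by their labels.

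Markers of the cells around the central vein, where many P450 genes are expressed, were compared with those of the portal side. Of 12 pericentral markers, edgeR called 1 with fenretinide at 20 weeks, Lgr5, which rose (log2 fold change 1.08, SE 0.17). DESeq2 called 3 and limma-voom 1, and the list median was 0.20. Unadjusted p values below 0.05 belonged to 3 markers, all higher: Lgr5, Rhbg (1.06, SE 0.29) and Tbx3 (0.93, SE 0.27). Other markers had negative values without a call, among them Glul (-0.28, SE 0.22) and Oat (-0.27, SE 0.26). Between the HFD groups edgeR, DESeq2 and limma-voom called 0, while 1 higher and 2 lower markers had an unadjusted p below 0.05. Of 9 tested periportal markers 0 were called with fenretinide at 20 weeks by edgeR, with 1 lower at an unadjusted p under 0.05 and 1 called by DESeq2 and by limma-voom, and 3 were lower in 20-week HFD than in 7-day HFD livers, Cps1 (-1.25, SE 0.20), Hal (-0.94, SE 0.22) and Cyp2f2 (-0.61, SE 0.11). Among markers of other cells, Marco, a macrophage receptor, rose with fenretinide at 20 weeks (2.26, SE 0.40). Lrat, the retinol esterifier of stellate cells, rose at 20 weeks (0.75, SE 0.14) and at 7 days (0.92, SE 0.09). It was the only edgeR call among 7 stellate cell markers, whose median log2 fold change was -0.19 at 20 weeks and 0.03 at 7 days. Unadjusted p values below 0.05 at 20 weeks belonged to Lrat and to 2 lower markers. These were Col1a1 (-1.36, SE 0.57) and Reln (-0.31, SE 0.13), neither of them called. Of the 7 hepatocyte markers 0 were called with fenretinide at 20 weeks by edgeR, while 3 were higher and 3 lower at an unadjusted p under 0.05, and DESeq2 called 6 and limma-voom 4. Their log2 fold changes lay between -0.56 (SE 0.17) for Alb and 0.76 (SE 0.18) for Fgb, a fibrinogen chain. The 10 periportal markers, a list that also holds Alb, summed to 36934 to 49357 CPM in 20-week FEN-HFD and 53779 to 62618 CPM in 20-week HFD livers, with no overlap. Most of this sum was Alb, with means of 34439 CPM in FEN-HFD and 50853 CPM in HFD livers. The median log2 fold change of the 9 tested periportal markers was 0.08, beside 0.01 for all genes. Between the HFD groups 2 of the 6 macrophage genes, Clec4f and Vsig4, and 3 of the 7 hepatocyte genes, Apoa1, Fgb and Serpina1a, fell by 0.55 to 0.83 on the log2 scale. The remaining hepatocyte genes were not called, with log2 fold changes of 0.12 (SE 0.13) for Alb, 0.16 (SE 0.11) for Apob, 0.16 (SE 0.12) for Ttr and -0.09 (SE 0.12) for Hnf4a. The hepatocyte list median was -0.09. Of the 7 stellate cell markers 1, Col1a1, was called, and it was higher (1.30, SE 0.31). No sinusoidal endothelial, cholangiocyte or lymphocyte marker was called in these 3 comparisons by edgeR, and those at an unadjusted p under 0.05 numbered 0 of 6, 2 of 5 and 0 of 4 with fenretinide at 20 weeks, 1 of 6, 1 of 5 and 0 of 5 at 7 days, and 2 of 6, 1 of 5 and 2 of 5 between the HFD groups, while DESeq2 called 1 sinusoidal endothelial gene between the HFD groups. At 7 days of fenretinide, Lrat was the single gene called in the 16 lists. Of the genes called in these lists, 2 of 10 at 20 weeks (Selenbp2 and Cyp39a1) and 18 of 31 between the HFD groups kept their call in all 8 fits that left out 1 mouse, and the others lost it in 1 to 7 of the 8. In these 2 comparisons every mouse but mouse 29 was among those whose removal ended a call.

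Genes whose level ran most like that of Cyp2c70 or Cyp2c29 were sought among the 9463 genes whose mean level reached 5 CPM, by Pearson's r of log2(CPM + 1) over the 16 mice. These points share the 4 groups, so that r reflects group differences as well as differences between mice, and it is given as a description. For Cyp2c70 the leading genes outside the family were Ces4a (r = 0.970), Selenbp2 (0.969), Hsd17b2 (0.964), C8b (0.953) and Serpina1e (0.950). Like Cyp2c70 they were lowest in the 20-week HFD group and highest in the 7-day FEN-HFD group, with C8b, a complement component, at 406 ± 33.8 CPM in 20-week FEN-HFD and 125 ± 65.0 CPM in 20-week HFD livers. Serpina1e, an alpha-1-antitrypsin gene, was at 4461 ± 1164 CPM in 20-week FEN-HFD and 319 ± 201 CPM in 20-week HFD livers. For Cyp2c29 the leading genes were Pbld2 (r = 0.890), Leap2 (0.858), Pls3 (0.836), Enpep (0.825) and Nudt19 (0.822). Leap2, a liver peptide known to block the ghrelin receptor, was at 31.3 ± 7.54 CPM in 20-week FEN-HFD and 47.8 ± 8.24 CPM in 20-week HFD livers, and at 21.2 ± 3.81 CPM in 7-day FEN-HFD and 30.6 ± 9.76 CPM in 7-day HFD livers.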

How the data were processed

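Liver RNA of 16 mice was sequenced as paired-end reads. Per the study's methods, the authors removed ribosomal RNA, filtered reads by quality and length, and aligned them with STAR 2.0 to mm10. They deposited 1 table of raw read counts per gene symbol, and ran DESeq2 themselves (version 1.6 in the submitters' processing notes). The labels name a stranded library kit and the methods another TruSeq kit; the counting program, annotation, strand setting and treatment of reads that match several genes are not given in the sources used here. Paralogs can therefore share counts.

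Groups came from the sample titles. Comparisons were fitted with edgeR 4.0.16 (quasi-likelihood, filterByExpr, TMM, R 4.3.3) on the 8 libraries of each pair of groups, with all 16 for the difference between durations; genes with an adjusted p under 0.05 were called. SE values are Wald errors with the quasi-dispersion. CPM used TMM factors over 16 libraries. Lengths are of the longest GENCODE M21 coding transcript. Coding sequences were aligned with Biopython 1.88 in Python 3.11.15. Of 166 listed symbols 165 were found, 2 by synonym. Alternatives were DESeq2 1.42.0, limma-voom (limma 3.58.1), other size factors, other count filters, a 1.5-fold threshold and leaving out each mouse. The scripts were tested on simulated data.

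The members and lists were chosen with earlier results of these data known. All 10 members are named; from other lists, called genes are named, at most 4 per list and comparison by smallest p, or all where a count of 5 or fewer needs them. Likeness names the 5 highest r. Totals of 19218230 to 32546829 counts bound the precision of low genes, and intervals cover counting error only.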

Additional observations from a re-analysis of the deposited data

Results flagged for a closer look

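In 40 combinations of gene and group, 3 held a mouse far from the other 3 of its group. For normally spread values chance alone would give about 1 in 20. The 40 combinations were not separate, since the same mice gave the values of every gene, so nothing is read from the 3 against that rate. All 3 were in the 7-day HFD group. Mouse 144 had 425 CPM of Cyp2c29, against 653 to 693 CPM in the other 3, and 119 CPM of Cyp2c37, against 203 to 217 CPM. Mouse 146 had 0.879 CPM of Cyp2c39 on 22 counts, against 0.411 to 0.487 CPM. Without mouse 144 the 7-day fenretinide log2 fold change was -0.91 for Cyp2c29 and 0.69 for Cyp2c37.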

How the results depend on the processing

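No paired analysis was possible because no mouse number was shared between groups. With fenretinide at 20 weeks 2 of the genes were called, 1 with a 1.5-fold threshold (Cyp2c70), 3 in limma-voom (Cyp2c40 added) and 1 to 2 when each mouse was left out. At 7 days 1 was called, against 2 in DESeq2, 0 in the fit of all 16 libraries, 0 with the 1.5-fold threshold and 0 to 1 without each mouse. In 20-week HFD against 7-day HFD livers 5 were called, 3 when at least 10 counts were asked of every library, which removed Cyp2c40 and Cyp2c69, and 5 to 7 without each mouse. For the difference between durations 0 were called, 1 each in DESeq2 and limma-voom, and 0 without any mouse. Of the genes in the other lists 10 were called with fenretinide at 20 weeks (36 in DESeq2, 26 in limma-voom, 2 to 14 without each mouse). At 7 days 1 was called (5 in DESeq2, 1 to 2 without each mouse). Between the HFD groups 31 were called (18 to 29 without each mouse, and up to 37 over all alternatives). For the difference between durations 0 were called (4 in DESeq2, 2 in limma-voom, 0 to 1 without each mouse). The cause of these differences between tools was not tested. Cyp2c70 at 20 weeks of fenretinide was called in all 17 alternatives (log2 fold change 1.77 to 2.15), and between the HFD groups the calls of Cyp2c38, Cyp2c39 and Cyp2c70 held in all 17 and those of Cyp2c40 and Cyp2c69 in the 16 that tested them. No called fold change turned its sign, while uncalled ones near 0 did so in 40 of the alternative values, 32 of them differences between durations. Low counts limit Cyp2c39, Cyp2c40 and Cyp2c69.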
